A study of Homo sapiens with 6 samples.

Results

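Binding of DPF3a, SMAD4 and p300 was examined at 10 genes of the hypoxia pathway, EPAS1, EGLN3, VEGFA, ANGPTL4, ADM, SLC2A1, CA9, CCND1, NDRG1 and PLOD2, out of 20033 protein-coding genes. The rule that names the genes uses their place in the pathway and no peak value, but the genes were chosen with earlier results of these data known. A peak was assigned to a gene when its summit, the base of highest read pileup, lay in the gene or within 20 kb on either side. Under this rule 54 of 51530 DPF3a peaks, 70 of 46367 SMAD4 peaks and 23 of 20380 p300 peaks belonged to the 10 genes. All 6 ChIP-seq libraries were made from 786-O cells, an established human clear cell renal carcinoma line, with 2 replicates for each factor. DPF3a, an isoform of a SWI/SNF chromatin remodeling subunit, was overexpressed with an HA tag, precipitated with an antibody to HA, and fixed with DSG in addition to formaldehyde. SMAD4, the common SMAD of TGF-β and BMP signaling, and p300, a histone acetyltransferase and coactivator, were precipitated with antibodies to the proteins after formaldehyde alone. The sources used here do not say whether the cells for the SMAD4 and p300 libraries overexpressed DPF3a, and the tagged DPF3a does not stand for the level of the endogenous protein. Only 1 peak list per factor, made from both replicates, was available, so no value has a replicate error and no difference between factors or genes was tested. The intervals given are 95% Wilson intervals and cover counting error only. The RNA of the 10 genes was not measured in these libraries.

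Hypoxia-inducible factors are pairs of an oxygen-regulated α subunit and the constant partner ARNT. In oxygen, prolyl hydroxylases of the EGLN family mark the α subunit for the VHL ubiquitin ligase, which sends it to degradation. Most clear cell renal carcinomas lose VHL, and the stabilized factor then switches on genes of angiogenesis, glucose uptake, pH control and matrix modification without low oxygen. 786-O cells lack functional VHL and are known for HIF-2α, the product of EPAS1, as their active α subunit. HIFs recognise a core of 5 letters in DNA, ACGTG or GCGTG, and p300 is a well-known coactivator of HIFs. The HIF proteins themselves were not precipitated here.

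The sequences under the sites that the results turn on are shown first, as 201 bases of the plus strand of hg38 centred on the DPF3a summit, with exact HIF core matches (ACGTG or GCGTG, either strand) and AP-1 consensus matches (TGACTCA or TGAGTCA, either strand) in capitals. The first set holds sites of all 3 factors, meaning a DPF3a peak that shared at least 0.5 of both lengths with a SMAD4 peak and with a p300 peak. They lay at chr14:34043863-34044063 and chr14:34060317-34060517 in the long gene model of EGLN3, at chr2:46315368-46315568 in intron 1 of EPAS1, at chr6:43798915-43799115 downstream of VEGFA and at chr11:69654544-69654744 downstream of CCND1, within the gene LTO1.
EGLN3, 92.9 kb upstream: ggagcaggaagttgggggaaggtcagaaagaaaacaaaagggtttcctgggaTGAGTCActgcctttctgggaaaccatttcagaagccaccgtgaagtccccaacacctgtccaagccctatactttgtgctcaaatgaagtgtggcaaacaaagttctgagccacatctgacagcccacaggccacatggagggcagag
EGLN3, 109 kb upstream: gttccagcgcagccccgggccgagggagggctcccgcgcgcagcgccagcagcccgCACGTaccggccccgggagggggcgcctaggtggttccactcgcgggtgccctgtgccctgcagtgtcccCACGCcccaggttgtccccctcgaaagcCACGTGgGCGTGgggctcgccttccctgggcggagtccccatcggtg
EPAS1, intron 1: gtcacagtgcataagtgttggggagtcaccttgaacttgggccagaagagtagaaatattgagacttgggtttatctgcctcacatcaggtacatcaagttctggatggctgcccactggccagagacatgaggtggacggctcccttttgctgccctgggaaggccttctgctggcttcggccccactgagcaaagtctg
VEGFA, 28.8 kb downstream of the start: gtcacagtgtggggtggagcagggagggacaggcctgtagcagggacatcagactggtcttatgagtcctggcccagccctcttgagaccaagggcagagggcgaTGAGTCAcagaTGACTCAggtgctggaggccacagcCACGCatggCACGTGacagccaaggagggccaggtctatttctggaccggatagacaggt
CCND1, 13.5 kb downstream of the start: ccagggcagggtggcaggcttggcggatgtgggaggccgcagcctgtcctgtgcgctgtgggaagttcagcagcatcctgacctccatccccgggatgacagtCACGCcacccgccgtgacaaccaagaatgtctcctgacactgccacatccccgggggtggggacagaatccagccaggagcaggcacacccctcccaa
These 5 sequences were unlike in content. The EGLN3 sequence 109 kb upstream had 5 core matches in 75.6% G and C, the VEGFA sequence had 3 core matches and 2 AP-1 matches, the CCND1 sequence had 1 core match, the other EGLN3 sequence had 1 AP-1 match, and the EPAS1 sequence had neither.

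The second set holds sites where DPF3a and SMAD4 shared a peak without a p300 peak of matching extent, at chr19:8355758-8355958 and chr19:8367298-8367498 for ANGPTL4 and at chr3:146132067-146132267 for PLOD2. They are shown because they include the highest fold enrichments of DPF3a and SMAD4 at the 10 genes.
ANGPTL4, 8.3 kb upstream: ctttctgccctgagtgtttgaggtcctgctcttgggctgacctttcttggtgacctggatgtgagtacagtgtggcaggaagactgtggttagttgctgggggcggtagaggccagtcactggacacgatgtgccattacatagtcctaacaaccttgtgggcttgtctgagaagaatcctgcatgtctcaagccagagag
ANGPTL4, intron 3: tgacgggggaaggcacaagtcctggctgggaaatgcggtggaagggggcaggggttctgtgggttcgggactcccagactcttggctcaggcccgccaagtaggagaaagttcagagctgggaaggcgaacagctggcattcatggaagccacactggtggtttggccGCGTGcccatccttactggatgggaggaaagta
PLOD2, intron 1: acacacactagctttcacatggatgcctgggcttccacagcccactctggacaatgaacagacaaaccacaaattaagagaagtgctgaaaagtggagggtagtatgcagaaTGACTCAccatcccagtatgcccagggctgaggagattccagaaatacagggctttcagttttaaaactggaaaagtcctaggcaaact
The upstream ANGPTL4 sequence had no match to either consensus, its intronic sequence had 1 core match, and the PLOD2 sequence had 1 AP-1 match. A match is a description of the letters and not evidence of a HIF or AP-1 protein there.

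All 10 genes had peaks of all 3 lists, which was also common in the genome. A DPF3a peak was found at 10 of 10 genes and at 79.0% of protein-coding genes under the same rule. A SMAD4 peak was found at 10 of 10 against 81.3%, and a p300 peak at 10 of 10 against 64.7%. Presence of a peak therefore sets the 10 genes little apart from most genes. Counts were more varied (see the bars of peaks per gene). The median was 4.5 DPF3a peaks per gene (range 2 to 10), against 2 over protein-coding genes. It was 5.5 SMAD4 peaks (range 3 to 15) against 2, and 2.5 p300 peaks (range 1 to 4) against 1. The windows were of ordinary length, with a median of 64.9 kb against 67.5 kb. Per 100 kb of window the 10 genes had 4.13 DPF3a, 5.35 SMAD4 and 1.76 p300 peaks, which was 2.47, 3.56 and 2.67 times the density over whole chromosomes. Whole chromosomes include gene deserts, so the count per gene is the closer comparison. Here and below, the protein-coding genes include all such genes. They were not matched to the hypoxia genes for expression or open chromatin.

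**Figure D1:**
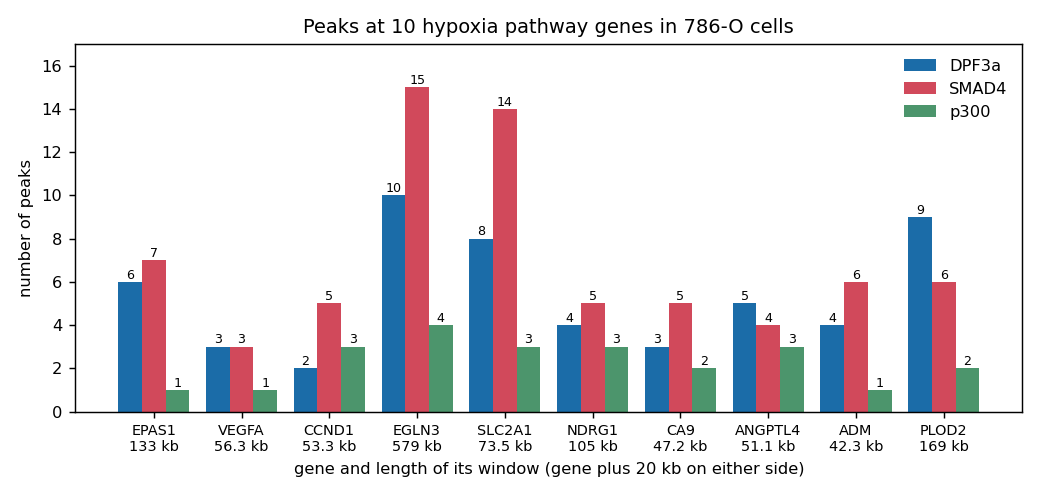
Number of DPF3a (blue), SMAD4 (red) and p300 (green) peaks at each of the 10 genes, with the length of the window searched in kb under each name. EGLN3 with 15 SMAD4 and 10 DPF3a peaks and SLC2A1 with 14 and 8 stand highest, but the EGLN3 window spans 579 kb and that of SLC2A1 73.5 kb.

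Promoter peaks, with the summit from 1000 bp upstream to 100 bp downstream of any annotated transcript start of the gene, were less uniform. DPF3a had one at 4 of 10 genes (VEGFA, SLC2A1, NDRG1 and PLOD2), against 41.7% of protein-coding genes. SMAD4 had one at 8 of 10, all but CA9 and ANGPTL4, against 57.2%. p300 had one at 5 of 10 (CCND1, EGLN3, SLC2A1, NDRG1 and PLOD2), against 32.9%. At CCND1 and SLC2A1 this p300 peak lay at another annotated start, 2.07 and 26.8 kb downstream of the canonical start. No difference from the shares in the genome was tested, and 10 genes give coarse shares. Of the summits, 8 of 54 for DPF3a, 13 of 70 for SMAD4 and 5 of 23 for p300 were in a promoter of one of the 10 genes. Counting promoters of any gene, there were 13 of 54, 21 of 70 and 11 of 23, and over the whole lists 10377 of 51530, 13822 of 46367 and 7512 of 20380.

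EPAS1 encodes HIF-2α (ENSG00000116016, chr2:46293667-46386697, plus strand). It had 9 sites, counting touching peaks as 1 site, and its strongest lay in intron 1, 18.1 kb from the start of the canonical transcript. There the DPF3a peak had a fold enrichment, which is the summit height plus 1 over the local background plus 1, of 10.1, beside 12.8 for SMAD4 and 5.17 for p300. The summits stood 83, 157 and 30 reads high. DPF3a ranked at percentile 83.1 of its list and SMAD4 at percentile 97, and this was the only p300 peak of the gene. The promoter, 0.119 kb upstream of the start, had a SMAD4 peak of 6.19-fold and no DPF3a or p300 peak. The remaining DPF3a peaks, at 3.49 to 5.75-fold, lay mostly in the same intron, and 2 of them, 13.8 and 28.1 kb from the start, touched no SMAD4 or p300 peak.

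EGLN3 encodes PHD3, a prolyl hydroxylase of HIF α subunits and itself a hypoxia-induced gene (ENSG00000129521, chr14:33924227-34462774, minus strand). Its annotated model is 539 kb long, but the canonical transcript covers only 26.8 kb of it, so most peaks assigned to EGLN3 lay far upstream of its usual start. At that start SMAD4 had 10.3-fold enrichment and p300 had 5.35-fold, with summits of 84 and 22 reads. DPF3a had no peak there. Instead, 7 of its 10 peaks formed a cluster between 84.7 and 131 kb upstream, each touching a SMAD4 peak, around the antisense gene EGLN3-AS1. The highest of these, 92.9 kb upstream, had 11.7-fold for DPF3a, 12.3-fold for SMAD4 and 5.65-fold for p300. Its summit heights were 35, 58 and 18 reads, so the high ratios rested on a low local background of 2.08, 3.8 and 2.36 reads. The second site of all 3 factors, 109 kb upstream, had 7.17, 7.83 and 4.98-fold. A further SMAD4 and p300 site, 511 kb upstream, lay in the promoter of SPTSSA, a subunit gene of serine palmitoyltransferase, and is listed under EGLN3 only because the gene models overlap.

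VEGFA encodes the main growth factor of blood vessels (ENSG00000112715, chr6:43770184-43786487, plus strand). It had 3 sites, all of DPF3a with SMAD4. At the promoter, 0.335 kb upstream, DPF3a had 6.25-fold and SMAD4, 0.365 kb upstream, had 5.52-fold. The summits were 36 and 115 reads high, in a SMAD4 background of 20 reads. The highest ratios were 28.8 kb downstream of the start, past the end of the gene, with 12.9-fold for DPF3a (percentile 94.4), 9.93-fold for SMAD4 (percentile 87.4) and 3.89-fold for p300 (percentile 14.6). No p300 peak was called at the promoter. This downstream site is the one whose sequence carries 3 core and 2 AP-1 matches.

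ANGPTL4 encodes a secreted inhibitor of lipoprotein lipase (ENSG00000167772, chr19:8363289-8374370, plus strand). The site 8.3 kb upstream had the highest SMAD4 fold enrichment of the 10 genes, 16.6-fold at percentile 99.6, and 13.8-fold for DPF3a at percentile 96.6. The p300 peak there reached 4.25-fold and percentile 24.7. Summit heights of 97, 170 and 32 reads in the 3 lists showed that the ratios did not rest on few reads. Nearer the gene, 1.99 kb upstream, the DPF3a peak had 10.9-fold, the SMAD4 peak 8.5-fold and the p300 peak 3.64-fold, and this was the gene's site of all 3 factors. In intron 3 DPF3a had 8.95-fold and SMAD4 10.4-fold with no p300 peak. None of these lay in the promoter as defined. The remaining site, 26.4 kb downstream of the start, was nearest to the start of RAB11B.

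ADM encodes adrenomedullin, a vasodilating peptide (ENSG00000148926, chr11:10305073-10307397, plus strand). Its promoter had a SMAD4 peak 0.269 kb upstream, with a summit of 105 reads over a background of 38.9 reads and therefore only 2.66-fold. The tallest site was 3.04 kb downstream of the start for DPF3a, past the end of the short gene, with 7.26-fold and 71 reads, where SMAD4 had 6.05-fold and 221 reads. Its summits lay in an annotated promoter of AMPD3, an AMP deaminase gene. All 4 DPF3a peaks shared a SMAD4 peak. The only p300 peak, 10.7 kb upstream, had 3.9-fold and overlapped neither list by 0.5 of both lengths. For none of the 11 peaks was ADM the gene with the nearest annotated coding-gene start, which belonged to SBF2 or AMPD3.

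SLC2A1 encodes GLUT1, the glucose transporter of the cell surface (ENSG00000117394, chr1:42925353-42958893, minus strand). Its 10.9 DPF3a and 19 SMAD4 peaks per 100 kb were the highest densities of the 10 genes, at percentiles 98.7 and 99.9 of protein-coding genes. Its 4.08 p300 peaks per 100 kb, at percentile 91, were below those of ANGPTL4 (5.87), CCND1 (5.63) and CA9 (4.23). Its SMAD4 summits were tall, from 53 to 254 reads. The median fold-enrichment percentile of those SMAD4 peaks was nevertheless 1.81, because the median local background was 22 reads. The tallest lay in intron 2, 17.7 kb from the start, with 254 reads and 6.63-fold for SMAD4 and 93 reads and 6.25-fold for DPF3a. The highest DPF3a ratio, 7.29-fold, was 8.41 kb upstream beside a SMAD4 peak of 5.92-fold. Around the start, DPF3a had 3.13-fold 0.154 kb upstream and SMAD4 3.76-fold 0.107 kb downstream. The 3 p300 peaks, at 3.54 to 3.72-fold, were 14.7 kb upstream, in intron 2 and past the end of the gene.

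CA9 encodes carbonic anhydrase IX, a surface enzyme of pH control and a marker of clear cell renal carcinoma (ENSG00000107159, chr9:35673928-35681159, plus strand). No list had a peak in its promoter or body. The 5 sites within 20 kb lay to either side, and most had another gene nearer by. The p300 peak of highest ratio at the 10 genes, 6.36-fold at percentile 91.5, was 16 kb upstream at the promoters of CCDC107 and RMRP, the RNA component gene of RNase MRP, with 7.11-fold for DPF3a and 7.27-fold for SMAD4. The site 8.79 kb upstream was at the promoter of ARHGEF39 and had SMAD4 at 7.31-fold and p300 at 3.98-fold. The DPF3a peaks 4.35 kb upstream and 14.9 kb downstream had 8.4 and 10.7-fold, each sharing a SMAD4 peak of 3.63 and 3.73-fold. The SMAD4 peak 17 kb downstream was at a promoter of TPM2, a tropomyosin gene.

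CCND1 encodes cyclin D1, which drives entry into the cell cycle and is raised by HIF-2α in renal carcinoma cells (ENSG00000110092, chr11:69641156-69654474, plus strand). It had the fewest DPF3a peaks, 2, and neither was in the promoter or body. SMAD4 and p300 had peaks in or beside the first exons, at 2.54 and 3.19-fold near the start and at 2.42 and 2.82-fold near exon 2. These were tall summits, of 72 and 48 reads and of 76 and 45 reads, over local backgrounds of 27.8 and 14.4 and of 30.8 and 15.3 reads. The strongest site was 13.5 kb from the start in LTO1, with 5.99-fold for DPF3a, 5.01-fold for p300 and, 13.8 kb from the start, 5.06-fold for SMAD4.

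NDRG1 encodes a stress-response protein that is strongly induced by hypoxia (ENSG00000104419, chr8:133237175-133302022, minus strand). It had 3 sites of all 3 factors, the most of the 10 genes. The site 23.5 kb upstream had 12.7-fold for DPF3a, 10.9-fold for SMAD4 and 4.32-fold for p300, with summits of 103, 156 and 34 reads. The site 6.11 kb upstream had 8.38, 7.77 and 5.27-fold with 31, 57 and 32 reads. At the promoter the ratios fell to 4.39, 7.04 and 3.27-fold although the heights were 41, 229 and 43 reads. The local background was 8.56, 31.7 and 12.5 reads there and 2.82, 6.46 and 5.26 reads at the site 6.11 kb upstream.

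PLOD2 encodes a lysyl hydroxylase that prepares collagen for cross-linking (ENSG00000152952, chr3:146035139-146163725, minus strand). It had 9 DPF3a and 6 SMAD4 peaks, and besides ANGPTL4, with 5 and 4, no other of the 10 genes had more DPF3a than SMAD4 peaks. Among the DPF3a peaks 3 touched neither other list. The peak 29 kb into the gene, in intron 1, had the highest DPF3a ratio of the 10 genes, 14.9-fold at percentile 98.1 with 107 reads, beside a SMAD4 peak of 8.74-fold and 63 reads. No p300 peak touched it. At the promoter SMAD4 had 12.1-fold with 223 reads, DPF3a 8.65-fold with 67 reads and p300 5.9-fold with 37 reads. These promoter peaks touched, but the p300 peak did not share 0.5 of both lengths with the DPF3a peak, so the site did not count among those of all 3 factors. Peaks 43.6, 68.7 and 83.9 kb into the gene were lower, with DPF3a summits of 11 to 29 reads.

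**Figure D2:**
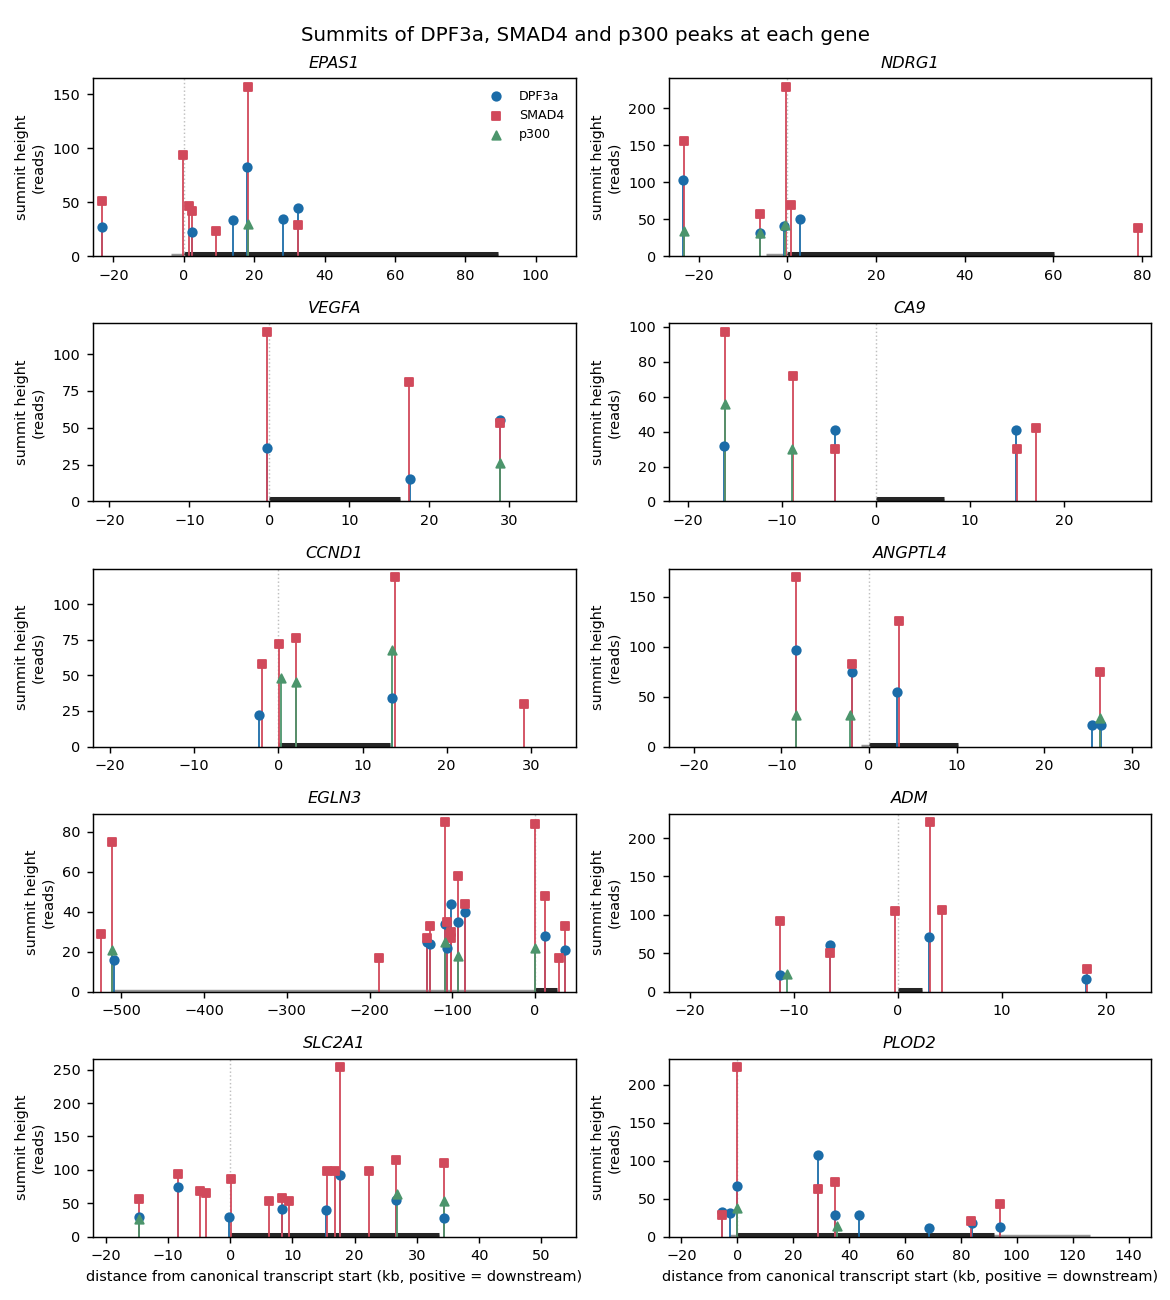
Summit heights in reads (vertical axis, each gene on its own scale) against distance from the canonical transcript start in kb (horizontal axis, positive downstream in the direction of transcription), for DPF3a (circles), SMAD4 (squares) and p300 (triangles). The thick black bar is the canonical transcript and the grey bar the whole gene model. The tallest summits lie away from the start at some genes, as in intron 1 of EPAS1 at 18.1 kb. At others they lie at the promoter, as for SMAD4 at NDRG1 (229 reads) and PLOD2 (223 reads). In the EGLN3 cluster 84.7 to 131 kb upstream the tallest SMAD4 summit has 85 reads, against 84 at the start.

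Peaks of the 3 lists coincided at the 10 genes (see the maps of summits). Counting touching peaks as 1 site, the 147 peaks formed 75 sites. Of these, 28 were DPF3a with SMAD4, 18 had all 3 factors, 17 were SMAD4 alone, 7 were DPF3a alone and 5 were SMAD4 with p300. No site was p300 alone or DPF3a with p300. By the stricter overlap of 0.5 of both peaks, 40 of 54 DPF3a peaks shared a SMAD4 peak, 74.1% (61.1 to 83.9), against 59.3% of the DPF3a list. DPF3a peaks touching no other list were 7 of 54, 13% (6.42 to 24.4), against 31.6%. None of the 23 p300 peaks stood without a touching peak of another factor, and the upper bound of that share was 14.3% against 31.3% in the p300 list. From the side of SMAD4 the share was not raised, with 40 of 70 peaks sharing a DPF3a peak, 57.1% (45.5 to 68.1), against 65.9%. The 10 genes were chosen together and peaks of 1 gene are neighbours, so these intervals understate the uncertainty.

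A DPF3a-SMAD4 site was present at 10 of 10 genes, against 69.1% of protein-coding genes. A site of all 3 factors by the stricter overlap was present at 7 of 10, against 41.4%. The genes without one were CA9, ADM and PLOD2. There were 11 such sites in all, 20.4% of the DPF3a peaks (11.8 to 32.9), against 15.2% of the list. At the 40 shared DPF3a-SMAD4 sites the summits of the pair were a median of 33 bp apart (quartiles 12.8 and 66.2), against 49 bp over all 30567 such sites. Across these 40 sites the log2 fold enrichments of DPF3a and SMAD4 had a Pearson correlation of 0.67 and a Spearman correlation of 0.70, against 0.41 and 0.36 over the list. These are descriptions across sites, which share local background and base composition and are not independent.

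Fold enrichment placed the peaks of the 10 genes low in their lists, whereas height placed them high. In the order DPF3a, SMAD4 and p300, the median percentile of fold enrichment was 40.3, 29.4 and 24.7. The median percentile of summit height was 67.3, 72.8 and 80.7, with median heights of 34, 64.5 and 32 reads against 25, 39 and 23 in the lists. The local background accounts arithmetically for the gap between the measures, because it is the denominator of the ratio. Its median was 5.09 reads for DPF3a against 2.82 in the list, 10.2 for SMAD4 against 5.16 and 6.76 for p300 against 3.76. A background above percentile 90 of the list was found for 17 of 54 DPF3a, 30 of 70 SMAD4 and 8 of 23 p300 peaks. Above percentile 99 there were 2, 11 and 4, at SLC2A1, CCND1, NDRG1 and ADM. Without these 4 genes, which were picked after their values were seen, the median percentile of fold enrichment was 50.1, 47.2 and 52.3 in the same order, and that of the background was 66.9, 68.2 and 70.4. No control library is named for the background, and what raised it at these genes was not tested.

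**Figure D3:**
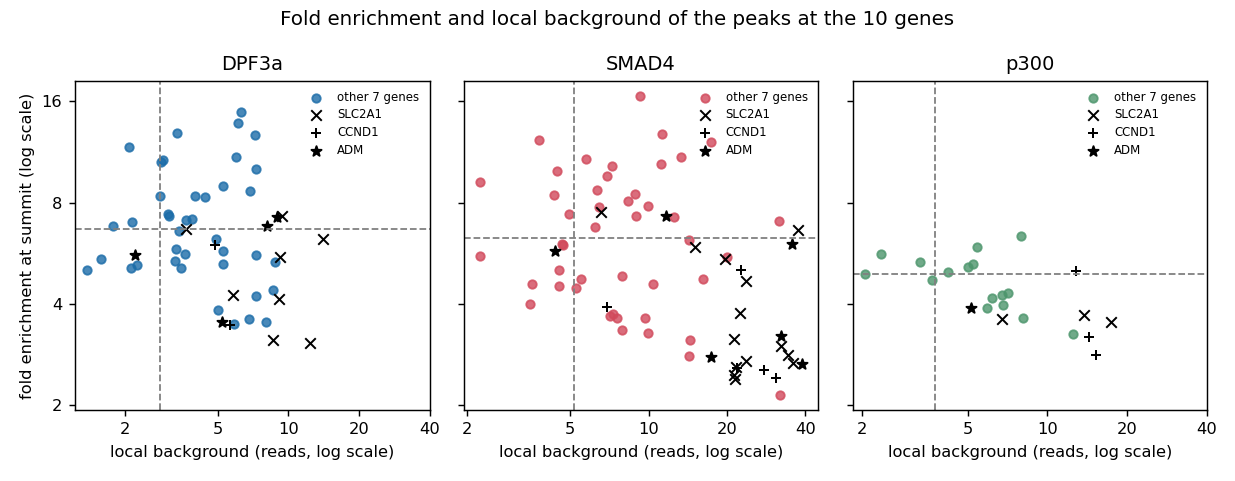
Fold enrichment at the summit against local background in reads (both axes on a log scale) for each peak at the 10 genes, 1 panel per list. Crosses, plus signs and stars mark SLC2A1, CCND1 and ADM, filled circles the other 7 genes, and dashed lines the medians of the whole list, which are 2.82, 5.16 and 3.76 reads on the horizontal axis. The marked genes lie mostly to the right of the vertical line and below the horizontal line in the SMAD4 and p300 panels.

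HIF core matches within 100 bp of the summit were common both at the 10 genes and in the lists. They were found in 19 of 54 DPF3a windows, 35.2% (23.8 to 48.5), against 27.7% of the list. SMAD4 had 32 of 70, 45.7% (34.6 to 57.3), against 34%. p300 had 11 of 23, 47.8% (29.2 to 67), against 43%. For DPF3a and p300 the list share lay inside the interval, and for SMAD4 it lay just below it. Windows of equal length 1000 bp away from the same summits had 24.1%, 27.1% and 21.7%. The core holds a CG pair and is frequent in CpG-rich promoters. At promoters of any gene 16 of 21 SMAD4 windows had a match, 76.2% (54.9 to 89.4), against 47.6% of the list's promoter windows. Outside promoters it was 16 of 49, 32.7% (21.2 to 46.6), against 28.3%. DPF3a had 5 of 13 at promoters, 38.5% (17.7 to 64.5), against 44.3%, and 14 of 41 outside them, 34.1% (21.6 to 49.5), against 23.5%. p300 had 7 of 11 at promoters, 63.6% (35.4 to 84.8), against 47.7%, and 4 of 12 outside them, 33.3% (13.8 to 60.9), against 40.3%.

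Windows with several cores were few, and the genes that had them were EGLN3, VEGFA, CA9, ADM, SLC2A1, NDRG1 and PLOD2. At least 3 cores were found in 5 of 54 DPF3a windows, against 2.2% of the list, in 6 of 70 SMAD4 windows against 3.6% and in 4 of 23 p300 windows against 4.54%. Overlapping matches on opposite strands, as in CACGTG, count separately. The DPF3a windows with 5 were 2, the EGLN3 site 109 kb upstream and the CCDC107 promoter near CA9, against 0.175% of the list. By gene, VEGFA had a core in 6 of 7 windows and CCND1 in 7 of 10. EPAS1 had one in only 2 of 14, and the other 7 genes lay between. Windows of different factors at 1 site overlap, so these counts repeat the same sequence.

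The AP-1 consensus followed another pattern. It was found in 20 of 54 DPF3a windows, 37% (25.4 to 50.4), against 34.2% of the list, and in 21 of 70 SMAD4 windows, 30% (20.5 to 41.5), against 25%. At p300 peaks it was 5 of 23, 21.7% (9.66 to 41.9), against 7.7%. All 5 lay outside promoters, at VEGFA, EGLN3, SLC2A1 and NDRG1, where 5 of 12 windows had it, against 10.4% of the list outside promoters. Windows 1000 bp away had 7.41%, 5.71% and 4.35%. AP-1 matches were absent from the 10 windows of CCND1 and most numerous at EGLN3, with 10 of 29. EGLN3 also had the most windows, and its share was below those of NDRG1 (6 of 12), VEGFA (3 of 7), SLC2A1, ADM and PLOD2. The SMAD palindrome GTCTAGAC was not found in any window of the 3 lists at the 10 genes, and it was rare throughout, at 0.138% of DPF3a, 0.356% of SMAD4 and 0.0393% of p300 windows. The shorter SMAD word CAGACA was found in 14.8%, 24.3% and 13% of windows, against 15.1%, 18.1% and 11.9%. The RUNX word TGTGGT was in 20.4%, 18.6% and 8.7%, against 24.9%, 22.9% and 14.1%. The ETS word CCGGAAG was in 0 of 54 DPF3a, 2 of 70 SMAD4 and 1 of 23 p300 windows, which is 0%, 2.86% and 4.35% against 2.37%, 4.23% and 3.66% of the lists. Each word was searched on both strands.

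**Figure D4:**
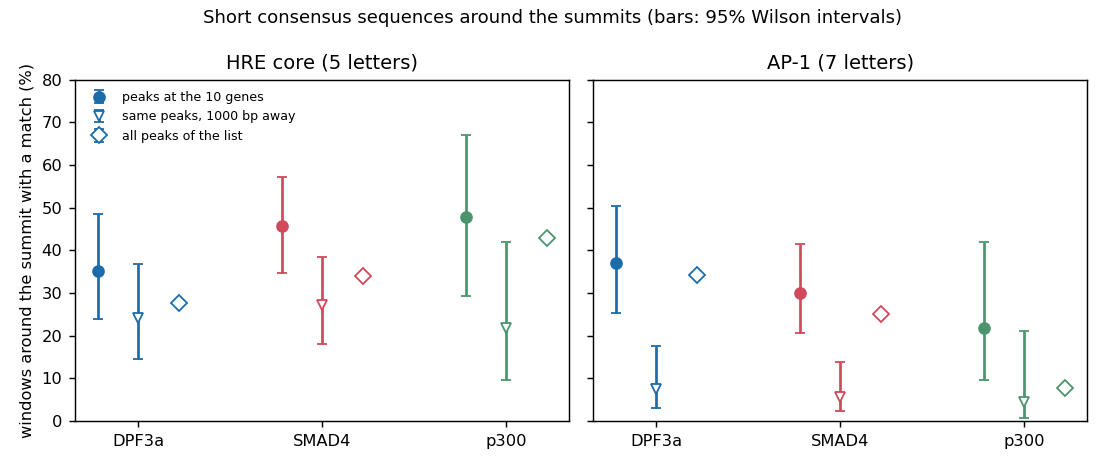
Percentage of windows of 201 bp with a HIF core match (left) or an AP-1 match (right) for peaks at the 10 genes (filled circles), windows 1000 bp from the same summits (triangles) and all peaks of the list (diamonds), by factor. Bars are 95% Wilson intervals, narrower than the symbol for the lists. AP-1 shares at the summits, 37%, 30% and 21.7%, stand above those 1000 bp away, 7.41%, 5.71% and 4.35%.

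A wider list of 40 hypoxia pathway genes was counted by the same rule. A DPF3a peak was found at 39 of 40, a SMAD4 peak at 39 of 40 and a p300 peak at 34 of 40, against 79.0%, 81.3% and 64.7% of protein-coding genes. LOX, a lysyl oxidase gene, had no DPF3a peak and CXCR4, a chemokine receptor gene, no SMAD4 peak. Promoter peaks were found at 27, 34 and 21 of the 40, which is 67.5%, 85% and 52.5%, against 41.7%, 57.2% and 32.9% of protein-coding genes. At the 10 genes the DPF3a count was 4 of 10, and the difference was not tested. A DPF3a-SMAD4 site was present at 36 of 40 and a site of all 3 factors at 26 of 40, against 69.1% and 41.4%.

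Among the 40 were 12 genes of HIF subunits, oxygen sensors and the VHL complex. They had medians of 2 DPF3a, 3 SMAD4 and 1 p300 peaks, against 2, 2 and 1 over protein-coding genes. A DPF3a promoter peak was found at 10 of 12 and a SMAD4 promoter peak at 11 of 12, against 41.7% and 57.2%. A site of all 3 factors was present at 6 of the 12 (HIF1A, ARNT, VHL, ELOB, ELOC and CUL2), against 41.4% of protein-coding genes. HIF3A, EGLN2 and RBX1 had no p300 peak. ARNT2, with 8 DPF3a and 10 SMAD4 peaks, and CUL2, with 10 and 7, had the highest counts of these 12 genes. They also had the longest windows, of 234 and 159 kb, so the counts do not rank density. EGLN1, the main oxygen sensor, had 5 DPF3a and 5 SMAD4 peaks, and VHL had 2 of each.

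The 28 further targets had medians of 4 DPF3a, 4.5 SMAD4 and 2 p300 peaks, near those of the 10 genes. PFKFB3, a regulator of glycolysis, had the most of each, with 12 DPF3a, 12 SMAD4 and 5 p300 peaks and 4 sites of all 3 factors. It was followed for DPF3a by CA12, a carbonic anhydrase gene, with 10. For SMAD4 the hexokinase gene HK2 had 10. For p300 P4HA2, TGFA and BHLHE40 had 4 each. The windows of PFKFB3 (150 kb), CA12 (100 kb), HK2 (99.2 kb), P4HA2 (145 kb) and TGFA (147 kb) exceeded the wider list's median of 72 kb. That of BHLHE40 was shorter, at 45.9 kb. These counts therefore do not rank density.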

How the data were processed

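The 6 ChIP-seq samples, all 786-O, were grouped by the factor in their titles, with 2 replicates each for DPF3a, SMAD4 and p300. The authors trimmed reads with cutadapt, mapped them to hg38 with Bowtie2 2.3.5.1, removed reads of mapping quality below 30, mitochondrial reads and Picard duplicates, and called peaks with MACS2 2.2.5. No control library is named. The labels describe 1 list per factor from both replicates.

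The score deposited by the authors exceeds 50 in every row. The deposited fold enrichment is a ratio of pileup to local background, and the deposited −log10 p comes from a Poisson comparison. Fold enrichment and −log10 p were converted to the number of reads at the summit and the local background, by a step tested on simulated data. The simulated backgrounds all lay below 10.2 reads, the median background of the SMAD4 peaks at the 10 genes. Higher backgrounds were therefore not covered by the test. They occurred in all 3 lists at some of SLC2A1, CCND1, ADM and NDRG1, and for SMAD4 also at EPAS1, VEGFA, CA9, ANGPTL4 and PLOD2. The lowest background corresponds to 15.8 M reads in the DPF3a, 30.4 M in the SMAD4 and 27.6 M in the p300 list, assuming fragments of 200 bp and a genome of 2.7 Gb. Intervals cover counting error only.

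Genes were those of GENCODE 44. Summits were assigned with Python 3.11.15, numpy 2.4.6, pandas 2.3.3, scipy 1.17.1 and pysam 0.24.0, and overlaps needed 0.5 of both peaks, as in the study. Percentiles are ranks within a list. The members, the wider gene list and the consensus words were chosen with earlier results of these data known. The text names every member, the genes of the wider list with the most peaks and its HIF subunit, sensor and VHL complex genes. Sequences at the members were ranked by the product of their fold enrichment percentiles among sites whose window touched no annotated exon and that were not on chromosome 8, which leaves out all NDRG1 sites. LTO1, SPTSSA, RAB11B and other neighbours, as well as LOX and CXCR4, were named after their values were seen. The values of 1 gene of the wider list are not reported here.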

Additional observations from a re-analysis of the deposited data

How the results depend on the processing

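No paired analysis was possible because the deposited lists do not separate replicates and no result comes from a test. For the same reason no replicate could be left out. Of 63 recomputed values, 43 stayed within 1.5 times the reported count or within its interval, and the other 20 follow. With scores over 200, the 10 genes had 18 DPF3a, 34 SMAD4 and 2 p300 peaks, 2 genes with a p300 peak, 2 with a DPF3a promoter peak and 0 with a p300 promoter peak. With scores over 100, there were 7 p300 peaks at 6 genes, 2 genes with a p300 promoter peak, 24 DPF3a-SMAD4 sites and 3 sites of all 3 factors. The p300 results therefore rest on low-scoring peaks. The shares of protein-coding genes at these higher scores were not computed, so whether the 10 genes differ from the lists in this was not tested. With 5 kb on either side there were 15 p300 peaks. Promoters of 2500 bp on both sides gave 7 genes with a DPF3a promoter peak, and canonical starts alone gave 3 with a p300 promoter peak. An overlap of 1 bp gave 18 sites of all 3 factors. Motif windows of 50 bp to either side had a HIF core in 20.4% of DPF3a and 30% of SMAD4 peaks, and windows of 200 bp in 61.1% of DPF3a, 65.7% of SMAD4 and 78.3% of p300 peaks. The lists' counts of reads, not replicate agreement, set the precision, and p300 summits at the 10 genes had 14 to 68 reads.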

Other observations

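Upstream of CCND1, beyond the 20 kb searched, lay further sites, looked at after the values at the gene were seen. Between 20 and 250 kb upstream of its start there were 8 DPF3a, 11 SMAD4 and 5 p300 peaks. Whole chromosomes had 1.67 DPF3a, 1.5 SMAD4 and 0.659 p300 peaks per 100 kb, and the CCND1 window had 3.75, 9.38 and 5.63. Whether this stretch is denser than other stretches near genes was not tested. The site 204 kb upstream had 14.9-fold enrichment for DPF3a (percentile 98.2), 16.3-fold for SMAD4 (percentile 99.5) and 3.83-fold for p300 (percentile 13), with summits of 82, 198 and 30 reads and 3 HIF core matches in the DPF3a window. Sites 144 and 76.6 kb upstream had DPF3a at 14.2 and 14.5-fold, each with a SMAD4 peak and neither with a p300 peak. The DPF3a and SMAD4 ratios at 204 kb exceed those within 20 kb of CCND1, where the highest were 5.99-fold and 5.06-fold, whereas the p300 ratio was below the 5.01-fold reached there. Which gene these sites act on was not tested.

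The site 221 kb upstream, at chr11:69419636-69420063, had all 3 factors at 5.51, 7.6 and 5.16-fold and 2 HIF core matches. Its central 201 bases on the plus strand, chr11:69419750-69419950, are given with the core matches in capitals. It is the farthest upstream of the sites there with all 3 factors and a core match, not the strongest, and was picked after its values were seen.
CCND1, 221 kb upstream: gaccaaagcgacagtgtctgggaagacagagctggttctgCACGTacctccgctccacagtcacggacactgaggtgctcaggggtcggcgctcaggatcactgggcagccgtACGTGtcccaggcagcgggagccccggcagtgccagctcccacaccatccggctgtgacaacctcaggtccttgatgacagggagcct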
